A study of Mus musculus with 6 samples.

Results

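The enzymes described here attach glutathione, glucuronic acid or sulfate to small molecules: the cytosolic and mitochondrial glutathione transferases (GST), the microsomal glutathione transferases (MGST), the UDP-glucuronosyltransferases (UGT) and the sulfotransferases (SULT). They were chosen by name alone, as the genes whose symbol begins with Gsta, Gstk, Gstm, Gsto, Gstp, Gstt, Gstz, Mgst, Ugt1a, Ugt2a, Ugt2b, Ugt3a or Sult and goes on with a digit, on probe sets annotated to 1 gene only. This gave 34 genes, each with 1 probe set, of 14860 genes so annotated: 17 GST, 2 MGST, 4 UGT and 11 SULT genes. A further 10 probe sets carry several symbols of these families. The 19 genes found only on those, among them the Ugt1a genes, Ugt2a1 and Gstp1, were not analysed singly here.

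RNA was measured on Affymetrix Mouse Exon 1.0 ST arrays in whole olfactory epithelium of 3 C57Bl/6 mice, 5 days after 1 nostril had been closed by unilateral naris occlusion. The 3 occluded arrays come from the epithelium on the closed side, where odour stimulation is lowered, and the 3 contralateral arrays from the open side, which the labels call the control. Both sides belong to animals with a closed nostril, stimulation of the open side is raised according to the labels, no array of an untreated animal was used here, and the labels used here give no age. They do not say which arrays share a mouse, so p-values measure only the spread between these arrays.

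Conjugation is the second step of the clearance of foreign molecules: a cytochrome P450 or another enzyme first makes a reactive group, a transferase then adds a large polar group, and efflux pumps export the product. In the nasal mucosa these enzymes sit mainly in the supporting (sustentacular) cells and in Bowman's glands, where they are thought to help end the action of odorants and to protect the neurons from inhaled toxicants. Glutathione transferases also remove products of lipid peroxidation, and sulfotransferases also inactivate steroid hormones, thyroid hormones and catecholamines.

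Values are RMA signals on the log2 scale, so a difference of 1 is a 2-fold change, and differences are occluded minus contralateral. The arrays had medians of 7.94 to 8.12 over 23332 probe sets. Occluded replicate 1 stood apart, with correlations of 0.977 to 0.983 with the other arrays, which correlated at 0.986 to 0.989 among themselves. Markers of the tissue were strongly represented: the mature neuron marker Omp measured 13.74, 13.61 and 13.65 on the occluded side and 13.54, 13.51 and 13.64 on the contralateral side. Cyp2g1, the nasal cytochrome P450 of the same cells that hold conjugating enzymes, measured 13.49, 13.35 and 13.37 on the occluded side and 13.48, 13.44 and 13.47 on the contralateral side. Scgb1a1, the secretoglobin of airway secretory cells, lay at 3.01 to 3.34 on all arrays. It was the lowest of 7 measured markers of respiratory epithelium, among which Reg3g had a mean of 12.7 and Foxj1 one of 9.71. In a bulk sample, fewer cells of a type and less RNA per cell cannot be told apart.

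None of the 34 conjugating enzymes passed the test between the sides. The limma fit over all probe sets, with Benjamini-Hochberg adjustment at a threshold of 0.05, called 0 members, against a background of 0% of the 23332 probe sets, and the members' adjusted p ran from 0.823 to 0.998. At an unadjusted p under 0.05 there was 1 member, Gstk1, or 2.94% of the members against 5.28% of all probe sets; it lay higher, as did 3.81% of all probe sets at that p, against 1.47% lower. The differences lay above 0 for 22 members, or 64.7%, against 64.8% of all probe sets. The median difference was 0.02 over the members and 0.06 over all probe sets. Without the lowest 25% of probe sets by mean, it was 0.11 over the 22 members left and 0.07 over all probe sets left. The sides did not overlap in 5 members, or 14.7%, against 10.7% of all probe sets: Gstz1, Gstt1, Mgst1 and Sult2a8 were higher on the occluded side in every array (4 members, against 7.49% of all probe sets), and Ugt2b1 was lower in every array (1 member, against 3.24%). The count of 5 was 11 without occluded replicate 1 (background 19.0%), 9 without occluded replicate 2 (27.2%), 9 without contralateral replicate 3 (28.9%), 2 after a further quantile normalization (11.6%) and 3 after cyclic loess (12.2%).

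The size of any change in signal was bounded by the spread between arrays. For all 34 members the 95% interval of the difference lay inside a 2-fold change either way, and for 30 of them inside a 1.5-fold change either way. The 4 whose intervals reached beyond 1.5-fold were Gstk1, Gsto1, Sult1a1 and Sult1e1. The Gstk1 interval was not a wide one: its SE was 0.12, beside a median SE of 0.12 over the members, and it lay off 0. In 10 members the mean lay under 6.20, the median of 34 reference genes of other organs. For these 10 the interval bounds the signal of the probe set and not the change in transcript level. The same may hold for further members, because only 17 of the 34 reference genes lay under 6.20 and the highest, Slc5a5, reached 7.85. Gsto2 (mean 6.33), Sult5a1 (6.59), Sult1a1 (7.19), Gstt2 (7.52) and Gstt1 (7.84) lay within that range. In 32 members the difference was smaller than the larger of the ranges within a side, and in 24 it was smaller than the larger SD within a side.

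**Figure D1:**
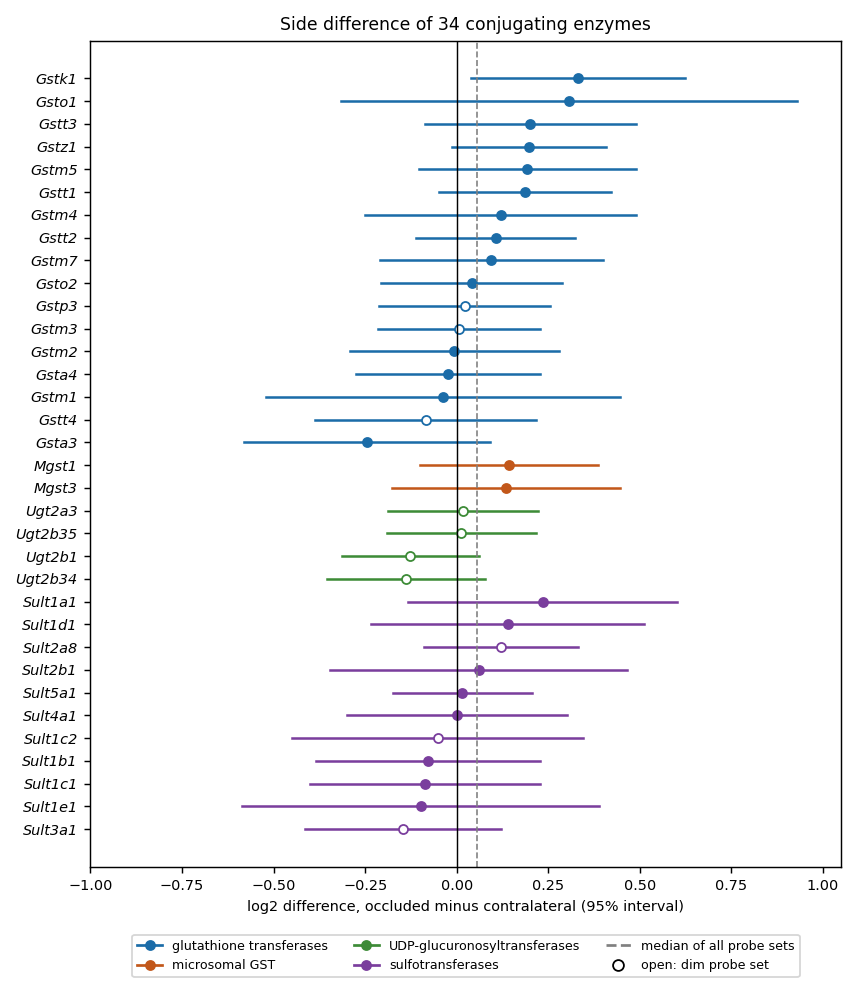
Log2 difference (x axis) of each of the 34 genes (rows), grouped as GST, MGST, UGT and SULT, with its 95% interval from limma; open circles are probe sets whose mean lies under 6.20, the median of 34 reference genes of organs other than the nose. The interval of Gstk1 alone excludes 0, before any adjustment, and no interval reaches 1 in either direction.

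Glutathione transferases were the largest group of the list, and 12 of their 17 members lay above 0, with a median difference of 0.09, or 0.01 without occluded replicate 1 and 0.02 to 0.03 under the 3 other scalings. Gstk1, the kappa class enzyme of mitochondria and peroxisomes, measured 8.79, 9.0 and 9.02 on the occluded side and 8.57, 8.45 and 8.79 on the contralateral side. The sides met at 8.79, the lowest occluded and the highest contralateral value. Its difference was 0.33 (SE 0.12), a 1.26-fold higher level with a 95% interval of 1.03 to 1.54, at an unadjusted p of 0.0316 and a limma adjusted p of 0.823.

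Gstz1, the zeta class enzyme that also isomerises maleylacetoacetate in tyrosine breakdown, measured 9.63, 9.59 and 9.50 on the occluded side and 9.39, 9.30 and 9.45 on the contralateral side. All occluded arrays lay above all contralateral arrays, by a difference of 0.20 (SE 0.09). The theta class enzymes, which act on small halogenated molecules, are neighbours in 1 cluster on chromosome 10. Gstt1 measured 8.08, 7.80 and 7.93 on the occluded side against 7.74, 7.75 and 7.76 on the contralateral side, a difference of 0.19 (SE 0.10) with no overlap. Its contralateral arrays spanned 0.02, and the lowest occluded array lay 0.04 above the highest of them. Gstt3 had a difference of 0.20 (SE 0.12), Gstt2 one of 0.11 (SE 0.09) and Gstt4 one of -0.08 (SE 0.13), and in each of these the sides overlapped.

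The 2 alpha class members lay below 0, Gsta4 only slightly. Gsta3, known in mouse for conjugating the epoxide of aflatoxin, measured 9.37, 9.65 and 9.24 on the occluded side and 9.85, 9.54 and 9.61 on the contralateral side. Occluded replicate 2 lay inside the contralateral range and the other occluded arrays below it. The difference was -0.24 (SE 0.14), the lowest of the list, at an unadjusted p of 0.127. Gsta4, which conjugates the lipid peroxidation product 4-hydroxynonenal, measured 11.84, 11.79 and 11.70 on the occluded side and 11.87, 11.63 and 11.89 on the contralateral side. Its occluded range fell within the contralateral one. The difference was -0.02 (SE 0.11), and it turned positive in 3 of the fits with 1 array left out.

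The 6 mu class genes, neighbours on chromosome 3, had differences from -0.04 to 0.19 with a median of 0.05, and the sides overlapped in each. Gstm5 measured 10.85, 11.20 and 11.06 on the occluded side and 10.94, 10.70 and 10.89 on the contralateral side, a difference of 0.19 (SE 0.12). Gstm1 measured 9.05, 8.82 and 8.28 on the occluded side and 8.59, 8.87 and 8.80 on the contralateral side, and its occluded arrays spread from below to above all contralateral ones. Gstm2 showed a difference of -0.01 (SE 0.12) and Gstm4 one of 0.12 (SE 0.16), the last with 9.98 in occluded replicate 1 and 9.46 to 9.60 in the other arrays of both sides. Without that array the Gstm4 difference was -0.05. Mu class genes are close copies of each other and may share probes, so single values are uncertain.

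Gsto1, an omega class enzyme that reduces dehydroascorbate, had the largest SE of all members. It measured 10.06, 9.75 and 9.25 on the occluded side and 9.10, 9.22 and 9.82 on the contralateral side. The sides overlapped widely, and the difference of 0.31 came with an SE of 0.26. Both microsomal transferases lay slightly above 0. Mgst1, the membrane enzyme that protects against lipid peroxidation, measured 11.15, 11.10 and 11.19 on the occluded side and 11.09, 10.84 and 11.09 on the contralateral side, without overlap, though the nearest arrays were only 0.01 apart. Its difference was 0.14 (SE 0.10). Mgst3, a membrane-bound peroxidase and transferase, measured 10.71, 10.35 and 10.37 on the occluded side and 10.35, 10.21 and 10.46 on the contralateral side, a difference of 0.14 (SE 0.13) with overlap. Mgst3 was at 0.02 without occluded replicate 1, and Mgst1 at 0.06 without contralateral replicate 2.

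**Figure D2:**
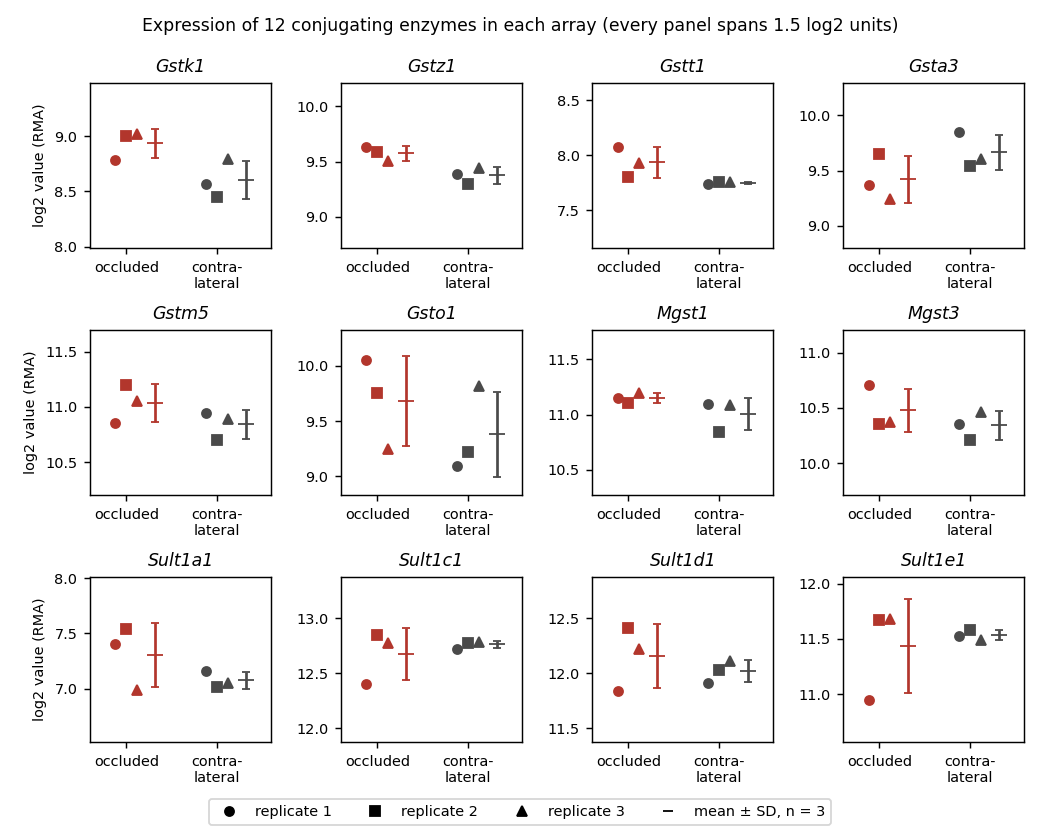
Log2 RMA value (y axis, 1.5 units in every panel) of 12 members in each occluded array (left, red) and contralateral array (right, grey), with the mean and SD of 3 arrays per side; marker shapes give the replicate number, which does not pair the arrays. The sides are apart in Gstz1, Gstt1 and Mgst1, and occluded replicate 1 is the lowest array in Sult1c1, Sult1d1 and Sult1e1.

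The 4 glucuronosyltransferases on probe sets annotated to 1 gene were Ugt2a3, Ugt2b1, Ugt2b34 and Ugt2b35. The Ugt1a genes and Ugt2a1 were not analysed singly, so the 4 do not describe the whole family. All 4 had dim probe sets, with means under 6.20. That is the median of 34 reference genes known from organs other than the nose, such as pancreas, testis and eye. The 4 are enzymes known mainly from liver and gut, and at this signal their differences are not well measured. Ugt2b1 measured 4.27, 4.24 and 4.28 on the occluded side and 4.37, 4.42 and 4.38 on the contralateral side, a difference of -0.13 (SE 0.08) with no overlap. Ugt2b34 measured 4.52, 4.62 and 4.58 on the occluded side and 4.80, 4.61 and 4.73 on the contralateral side, a difference of -0.14 (SE 0.09) with overlap. Ugt2a3 and Ugt2b35 had differences of 0.02 and 0.01. Of those reference genes 24 of 34 lay below 0, with a median difference of -0.03.

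The sulfotransferases were spread evenly about 0, with 6 of 11 above 0 and a median difference of 0.00, which turned to -0.08 to -0.05 under the 3 other scalings. Sult1a1, which sulfates simple phenols, measured 7.40, 7.54 and 6.98 on the occluded side and 7.16, 7.01 and 7.05 on the contralateral side. Occluded replicates 1 and 2 lay above, and occluded replicate 3 below, every contralateral array, and the difference was 0.23 (SE 0.15), or -0.07 with array quality weights. Sult4a1, a neuronal member with no established substrate, measured 11.04, 10.74 and 10.97 on the occluded side and 10.90, 10.76 and 11.08 on the contralateral side, a difference of 0.00 (SE 0.13). Sult2b1, which sulfates cholesterol and related steroids, measured 8.46, 7.88 and 7.88 on the occluded side and 7.97, 7.99 and 8.09 on the contralateral side. Its difference of 0.06 was -0.13 without occluded replicate 1.

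Sult1c1, Sult1d1 and Sult1e1 shared a low occluded replicate 1. Sult1c1, a phenol sulfotransferase, measured 12.40, 12.84 and 12.78 on the occluded side and 12.72, 12.78 and 12.79 on the contralateral side. Sult1d1, which sulfates catecholamines and other amines, measured 11.84, 12.41 and 12.22 on the occluded side and 11.91, 12.03 and 12.11 on the contralateral side. Sult1e1, the estrogen sulfotransferase, measured 10.94, 11.67 and 11.68 on the occluded side and 11.52, 11.58 and 11.49 on the contralateral side. The occluded SD was 0.42 for Sult1e1 against 0.05 on the contralateral side, and 0.24 for Sult1c1 against 0.04. With that array left out, the differences were 0.05 for Sult1c1, 0.30 for Sult1d1 and 0.15 for Sult1e1, against -0.09, 0.14 and -0.10 with it. Sult1d1 and Sult1e1 are neighbours on chromosome 5, with Sult1b1 beside them, and Sult1b1 did not share the pattern: it measured 8.48, 8.32 and 8.08 on the occluded side and 8.25, 8.37 and 8.49 on the contralateral side. The remaining members, Sult1c2, Sult2a8, Sult3a1 and Sult5a1, had differences from -0.15 to 0.12, and the first 3 of these were dim.

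**Figure D3:**
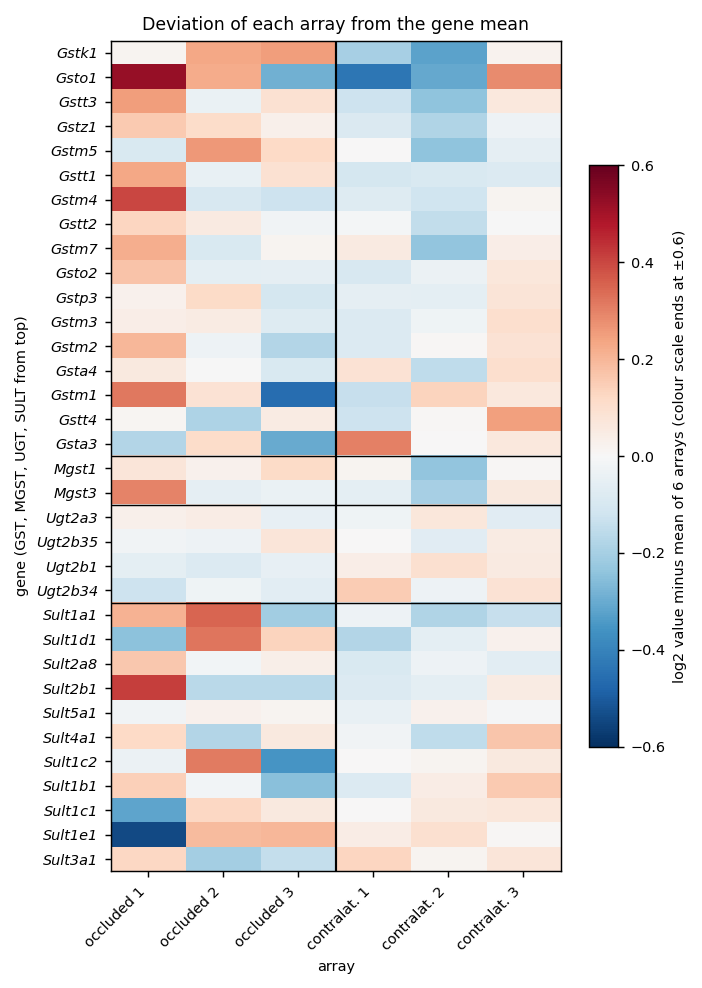
Log2 value of each array (columns, occluded left of the line) minus the mean of all 6 arrays, for the 34 genes (rows; black lines separate GST, MGST, UGT and SULT); red is above and blue below the gene's mean. Occluded replicate 1 is the highest array for 13 genes and, in Sult1c1, Sult1d1 and Sult1e1, the lowest.

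Occluded replicate 1 was the highest array for 13 of the 34 members, and contralateral replicate 2 the lowest for 10. The median SD within a side was 0.15 on the occluded and 0.08 on the contralateral side over the members, against 0.17 and 0.12 over all probe sets. Without occluded replicate 1 no member passed, the median difference was 0.01, and the unadjusted p was under 0.05 for Gstk1 (0.41), Gstm5 (0.29), Sult1d1 (0.30) and Sult3a1 (-0.25), or 8.82% of members higher and 2.94% lower, against 3.54% and 1.80% of all probe sets. That array also differed in markers of other cells. The mean of 7 Bowman's gland markers was 8.62 in it, 9.17 and 9.21 in the other occluded arrays, and 8.51 to 8.89 on the contralateral side. The markers did not move together in that array. Dmbt1 (6.77, against 9.79 and 9.18 in the other occluded arrays), Ltf and Azgp1 were low in it. Aqp5, Ascl3 (8.55, against 7.90 and 7.99) and Sox9 were at their highest of all arrays, and Sox10 lay between. All 7 lay above 0, with a median difference of 0.22, or 0.11 without that array, and 6 of 7 did under the 3 other scalings. The mean of 10 sustentacular markers ran from 11.06 to 11.26 on the occluded and from 11.07 to 11.18 on the contralateral side. The mean of 9 connective tissue markers was 11.85 to 12.21 on the occluded and 11.65 to 11.83 on the contralateral side, that of 9 endothelial markers 8.01 to 8.55 against 7.82 to 8.0, and that of 9 macrophage markers 8.05 to 8.56 against 7.71 to 7.97. In each of these 3 lists all 9 members lay above 0 and none was dim. The connective tissue marker Dcn, at 0.0001, and the macrophage marker Aif1, at 0.001, were in effect level between the sides. Without occluded replicate 1 the 3 lists had median differences of 0.18, 0.14 and 0.18, against 0.35, 0.30 and 0.35 with it. Of the macrophage markers 8 of 9 then lay above 0. Under the 3 other scalings 8 of 9 connective tissue and 8 of 9 macrophage markers did. The mean of 6 olfactory ensheathing glia markers was 8.94 to 9.03 on the occluded and 8.68 to 8.82 on the contralateral side. All 6 lay above 0, with a median difference of 0.24. It was 0.30 without occluded replicate 1, where 5 of 6 lay above 0, and 4 or 5 did under the 3 other scalings. The part of these cell types in the enzymes' differences was not tested.

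The balance of directions depended on the scaling. After each array was centred on its median, the difference was positive for 14 members and negative for 20. The members' median was then -0.06, against -0.02 over all probe sets, and the sides did not overlap in 1 higher and 3 lower members, against 3.79% and 9.38% of all probe sets. At an unadjusted p under 0.05 there were 0 higher and 3 lower members, Ugt2b1 (-0.21), Ugt2b34 (-0.22) and Sult3a1 (-0.23), all dim, against 1 higher and 0 lower as deposited. Under that centring 2.19% of all probe sets were higher and 3.74% lower at that p. Cyclic loess left 0 in either direction. Array quality weights, whose estimate gave occluded replicate 3 a weight of 7.02 and occluded replicate 1 one of 0.22, gave 6 higher and 3 lower, or 17.6% and 8.82% of the members, against 14.9% and 8.32% of all probe sets. Gstk1 was then at 0.43 with a limma adjusted p of 0.0658.

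Promoters were searched for the letters bound by known inducers of these enzymes. The antioxidant response element, through which the factor Nrf2 (gene Nfe2l2) acts, was searched as TGACNNNGC, and the core of the xenobiotic response element, bound by the aryl hydrocarbon receptor with its partner Arnt, as GCGTG, both on either strand, from 250 bases before to 50 after each RefSeq start. Of the 34 members 31 had a promoter in the RefSeq table of build GRCm38.p6; Gsta4, Gstt2 and Sult4a1 had no entry. The antioxidant letters were found in 4 of the 31 members, or 12.9%, against 14% of 27025 genes, and the xenobiotic letters in 7, or 22.6%, against 35.2%. The 4 matches are printed on the gene's own strand, 5′ to 3′, with the matched letters in capitals, to show the sites behind the count. That of Mgst1 is on the opposite strand, so its capitals are the reverse complement. In Gstm5 the match ends in letters that also hold a xenobiotic core.
Gsta3, chr1:21240434-21240502, plus strand: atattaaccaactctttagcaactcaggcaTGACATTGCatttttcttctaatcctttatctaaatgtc
Gstm5, chr3:107895782-107895850, plus strand: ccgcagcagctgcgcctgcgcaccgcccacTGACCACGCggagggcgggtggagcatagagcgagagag
Gstm7, chr3:107931705-107931773, minus strand: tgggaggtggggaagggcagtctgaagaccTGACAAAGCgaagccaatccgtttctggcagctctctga
Mgst1, chr6:138140441-138140509, plus strand: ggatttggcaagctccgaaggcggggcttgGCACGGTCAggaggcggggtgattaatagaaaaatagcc

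The 4 genes with the antioxidant letters had differences of -0.24 for Gsta3, 0.19 for Gstm5, 0.09 for Gstm7 and 0.14 for Mgst1, so that both the lowest value of the list and some of the higher ones stood among them. Their median was 0.12, against 0.02 for the 27 members without the letters. None of the 4 was dim, while all 10 dim members stood among the 27. Over the 24 members that were not dim, with or without the letters, the median was 0.10. A match shows the letters only, and binding was not measured.

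Another 6 lists held genes that supply the cofactors, export the products or regulate the enzymes, and other conjugating enzymes. Of their 66 measured genes 0 passed in either direction. The background was 0% of the 23332 probe sets, so this count does not set the lists apart. In glutathione synthesis and recycling 12 of 14 lay above 0, with a median difference of 0.07 that turned to -0.01 after median centring. The unadjusted p was under 0.05 for 2 of the 14, against 5.28% of all probe sets. The sides did not overlap in 4 of the 14, against 10.7% of all probe sets. Anpep, the aminopeptidase that splits the cysteinylglycine released from glutathione, measured 8.73, 8.47 and 8.55 on the occluded side and 8.30, 8.23 and 8.13 on the contralateral side, without overlap, a difference of 0.37 (SE 0.10) at a limma adjusted p of 0.823. Ggct, which breaks down gamma-glutamyl peptides, had a difference of 0.32 (SE 0.12). Gclc, the catalytic subunit of the rate-limiting enzyme of glutathione synthesis, went the other way: it measured 10.58, 10.52 and 10.41 on the occluded side and 11.01, 10.59 and 10.67 on the contralateral side, without overlap, a difference of -0.25 (SE 0.13) that was -0.13 without contralateral replicate 1. Ggt6, of the gamma-glutamyltransferase family, was at -0.08 (SE 0.09).

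On the list of PAPS supply and sulfate ester cleavage, 8 of 9 genes lay above 0, with a median difference of 0.18 against 0.06 over all probe sets; it was 0.13 without occluded replicate 1 and 0.10 under each of the 3 other scalings, which brought that of all probe sets to between -0.02 and 0. PAPS is the sulfate donor of the sulfotransferases, and the list also holds the lysosomal sulfatases Arsa and Arsb, their activating enzyme Sumf1 and the phosphatase Bpnt1. Arsb had the highest difference on it, 0.45 (SE 0.24), on the brighter of its 2 probe sets. It measured 9.80, 9.12 and 8.85 on the occluded side and 8.86, 8.62 and 8.95 on the contralateral side. The sides overlapped, and occluded replicate 1 stood highest. Slc35b2, which carries PAPS into the Golgi, measured 8.77, 8.35 and 8.25 on the occluded side and 8.04, 8.07 and 8.28 on the contralateral side, with overlap and a difference of 0.32 (SE 0.16). Slc26a2, a sulfate transporter of the cell surface, had a difference of 0.18 (SE 0.09). The exception was Papss2, a PAPS synthase, which measured 10.81, 10.95 and 10.95 on the occluded side and 11.14, 11.01 and 11.01 on the contralateral side, without overlap, a difference of -0.15 (SE 0.09). Without occluded replicate 1 Slc35b2 was at 0.17, and Papss2 at -0.11.

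Genes of UDP-glucuronate, the donor of the glucuronosyltransferases, were balanced, with 2 of 4 above 0 and a median difference of -0.01. Ugdh, which makes UDP-glucuronate, was at -0.09 (SE 0.09), Slc35d1, which carries it into the endoplasmic reticulum, at -0.10 (SE 0.10), Ugp2, which makes its precursor, at 0.06 (SE 0.11), and Gusb, the lysosomal enzyme that cleaves glucuronides, at 0.18 (SE 0.16). Among the efflux genes 5 of 11 lay above 0. The drug pump Abcb1a had a difference of 0.21 (SE 0.10), Abcc5, a pump of the multidrug resistance protein family, one of -0.16 (SE 0.12), and its relative Abcc6 one of -0.06 (SE 0.08). Rlbp1, at 0.14 (SE 0.09), stood on this list although it is a retinaldehyde-binding protein and no pump.

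Among other conjugating and related enzymes 8 of 13 lay above 0, with a median difference of 0.13, or 0.05 without occluded replicate 1. Ephx2, the soluble epoxide hydrolase, measured 6.92, 6.70 and 6.38 on the occluded side and 6.35, 6.27 and 6.34 on the contralateral side, without overlap, a difference of 0.34 (SE 0.14). Nnmt, the nicotinamide N-methyltransferase, was at 0.17 (SE 0.08), Nat1, an arylamine N-acetyltransferase, at -0.11 (SE 0.13), and Glyat, which conjugates glycine, at -0.19 (SE 0.13) with a dim probe set. Of the regulators 13 of 15 lay above 0, with differences from -0.10 to 0.20, but 8 without occluded replicate 1 and 5 to 7 under the 3 other scalings. Rxra, the shared partner of nuclear receptors, was at 0.20 (SE 0.14), Bach1, a repressor at antioxidant response elements, at 0.15 (SE 0.12), the small Maf protein Mafg, a partner of Nrf2, at -0.10 (SE 0.12), and the aryl hydrocarbon receptor repressor gene Ahrr at -0.05 (SE 0.08).

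**Figure D4:**
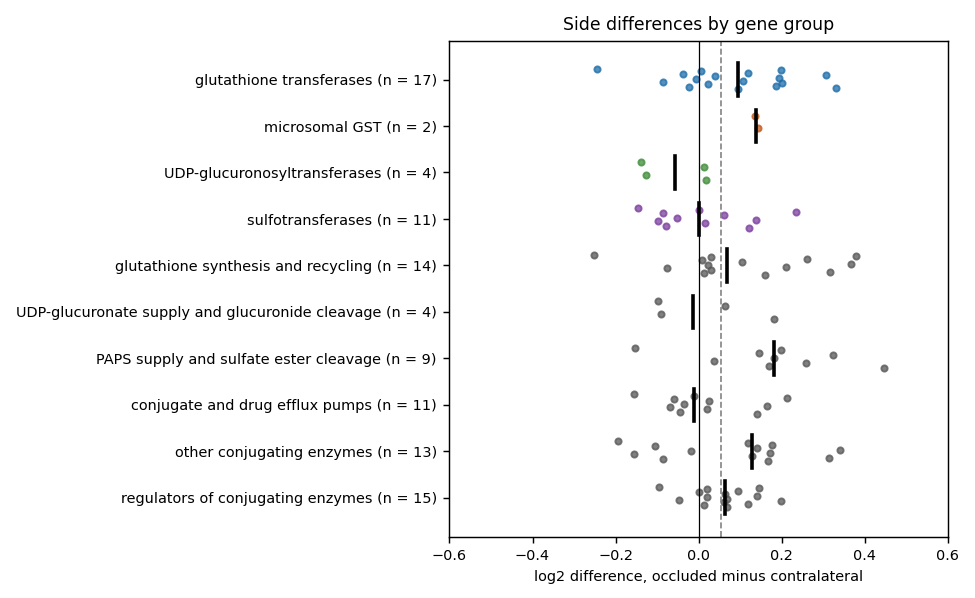
Log2 difference, occluded minus contralateral (x axis), of the members in the 4 enzyme groups (coloured) and of every measured gene in 6 lists (grey). The lists hold cofactor, efflux, related and regulatory genes. Black bars are medians and the dashed line is the median of all probe sets, 0.06. The list of PAPS supply and sulfate ester cleavage has the rightmost median, 0.18, and no gene in the plot passed the test.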

How the data were processed

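Per the labels, the authors computed the deposited log2 expression values by RMA at the core gene level of Expression Console. The log base is taken from the range of the values, and no software version is known here. RMA subtracts background, brings the probe distributions of the arrays together and fits 1 value per probe set, so a shift shared by many genes can shrink. Scanner files were not used here, and the number of arrays limits precision.

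Gene names came from the annotation of the platform: of 23332 probe sets, 14996 had 1 symbol, 1019 several and 7317 none. A gene on several probe sets is given by the one with the highest mean. The sides were compared in R 4.3.3 by limma 3.58.1, two-sided and without pairing, and p-values were adjusted over the whole array by Benjamini-Hochberg. With 3 arrays a side, an exact permutation p cannot be smaller than 0.1, so none was run. Lists are described by counts and medians. A probe set is called dim where its mean is under 6.20, the median of 34 reference genes of other organs; this describes signal and compares no genes.

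Genes named are the 3 members with the smallest p in each direction per enzyme group, the measured ones of 19 landmark genes, and 2 genes per list and direction; genes outside this rule (Gstm4, Gstm5, Gstt2, Gstt3, Sult2b1, Arsb and others) were named after their values were seen. Members and lists were chosen with earlier results of these data known. The fit was tested on simulated data. Alternatives were a replicate block, leaving out each array, 3 scalings, a filter on dim probe sets, single-symbol probe sets, a variance trend, a robust fit, array weights and an unadjusted threshold.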

Additional observations from a re-analysis of the deposited data

How the results depend on the processing

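At the adjusted threshold no member passed under any alternative run; with the unadjusted threshold 1 member passed. The smallest adjusted p of any member, 0.0658 for Gstk1, came with array quality weights. Leaving out 1 array gave 0 or 1 called probe sets over the whole array, 0 to 4 members and 778 to 1704 probe sets at an unadjusted p under 0.05 (as reported, 1 and 1233), and a members' median of 0.011 to 0.093; the single call came without contralateral replicate 2, and the 0.093 without occluded replicate 3. Same-numbered arrays deviated from their side means with correlations of 0.0095, 0.17 and -0.041 and the labels do not say that a number marks a mouse, so the numbers were not taken as pairs. A replicate block changed no call: 0 members and 0 probe sets passed, with the members' median at 0.019.

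Called probe sets were 62 with array weights and 1 with single-symbol probe sets only. Members at an unadjusted p under 0.05 were 3 after median centring, 0 after cyclic loess, 2 with single-symbol probe sets, 2 with a trend and 9 with array weights, where 5411 probe sets reached it. The members' median was -0.060 after median centring. It was 0.11 without the lowest 25% of probe sets, which left 22 members, against 0.067 over all probe sets left. The cause of the other shifts was not tested.

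Among the members and the other named genes, differences changed sign in 9 with array weights: Gstm3 (-0.022), Gstm4 (-0.036), Gstp3 (-0.053), Gstt4 (0.069), Ugt2a3 (-0.029), Sult1a1 (-0.074, as reported 0.23), Sult1c1 (0.030), Sult1e1 (0.13) and Sult2b1 (-0.091). After median centring 9 did: Gstm3 (-0.073), Gsto2 (-0.039), Gstp3 (-0.057), Ugt2a3 (-0.062), Ugt2b35 (-0.067), Sult2b1 (-0.019), Sult4a1 (-0.077), Sult5a1 (-0.064) and Ugp2 (-0.015). After quantile normalization 7 did: Gstm3 (-0.011), Ugt2a3 (-0.015), Ugt2b35 (-0.032), Sult2b1 (-0.020), Sult4a1 (-0.053), Sult5a1 (-0.011) and Ugp2 (-0.0066). After cyclic loess 4 did: Sult2b1 (-0.018), Sult4a1 (-0.054), Sult5a1 (-0.0027) and Ugp2 (-0.0030). As arrays were left out, Gstt4 ran from -0.17 to 0.017, Gsta4 from -0.11 to 0.022, Gstm1 from -0.20 to 0.18, Gstm2 from -0.11 to 0.080, Gstm3 from -0.033 to 0.058, Gstm4 from -0.050 to 0.21, Gsto2 from -0.036 to 0.085, Gstp3 from -0.030 to 0.081, Ugt2a3 from -0.013 to 0.056, Ugt2b35 from -0.021 to 0.040, Sult1b1 from -0.17 to 0.025, Sult1c1 from -0.17 to 0.050, Sult1c2 from -0.22 to 0.11, Sult1e1 from -0.22 to 0.15, Sult2b1 from -0.13 to 0.16, Sult4a1 from -0.074 to 0.090, Sult5a1 from -0.0019 to 0.033, Ugp2 from -0.018 to 0.16, Nat1 from -0.17 to 0.015 and Mafg from -0.18 to 0.012.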
